A study of Homo sapiens with 12 samples.

Results

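Mitochondrial ribosomal protein genes were read in a human lens epithelial line with and without the autophagy gene ATG7, before and after exposure to H2O2. The members were the protein-coding genes of the count table whose symbol begins with MRPL (proteins named for the large subunit) or MRPS (small subunit) followed by a digit. This rule, which uses no measured value, found 78 genes, 49 MRPL and 29 MRPS, of 58735 genes in the table and of 19951 protein-coding genes. A further 77 rows with such symbols but another biotype, 75 of them pseudogenes, were left out. Mitochondrial ribosomes translate the few messages encoded by mitochondrial DNA, which specify core subunits of the respiratory chain and ATP synthase. Their rRNA comes from mitochondrial DNA, but every one of their proteins is encoded in the nucleus, made in the cytosol and imported. Autophagy, for which ATG7 is needed to lipidate LC3, is one route by which cells remove damaged mitochondria. Lens epithelial cells keep their mitochondria, whereas lens fibre cells lose theirs as they mature.

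The cells were HLE-B3, an immortalised human lens epithelial line. Each of 4 groups had 3 libraries that the study calls biological replicates. The wild type line (WT) and a line whose ATG7 gene was disrupted with CRISPR/Cas9 (ATG7 KO) were each harvested untreated at 0 h or after 12 h with 200 μM H2O2, so that the oxidant and 12 h of further culture cannot be told apart. Both lines grew in the same medium. The knockout line was made by puromycin selection and picking of single clones, and the labels do not say which clone or clones were sequenced, so a property of a clone and loss of ATG7 cannot be told apart.

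Depth was even, at 15602183 to 17659496 reads assigned to genes per library. ATG7 mRNA stood at 2.55 ± 0.313 FPKM (SD, n = 3; fragments scaled by exon length and depth, a level per length) in untreated WT cells and at 3.55 ± 0.205 in untreated KO cells, and after H2O2 at 1.96 ± 0.0411 in WT and 2.19 ± 0.137 in KO cells. It was not lower in the KO line, so these levels do not check the genotype. Of 7 lens epithelial markers, 5 passed 1 FPKM in some library, and their summed level ran from 634 to 673 FPKM in WT untreated, 601 to 618 in WT H2O2, 447 to 592 in KO untreated and 386 to 391 in KO H2O2 libraries. Abundant markers weigh most in such sums. Of 5 tested markers, 1 was higher and 4 lower in treated KO than in treated WT cells at an adjusted p below 0.01. Of all genes, 27.7% were higher and 27.9% lower. After H2O2 in WT cells 2 of the 5 were higher and 2 lower, against 30.9% and 30.1% of all genes. FOXE3 and CRYAA were at or near 0 in every library. The part of this difference between lines in the results below was not tested. None of 6 lens fibre markers and none of 6 markers of other cell types passed 1 FPKM. The first untreated KO library stood apart. Its reads held 0.499% of member sequence against 0.323% to 0.368% in the other 11 libraries, and it lay above both its replicates for 76 of the 78 members. The members' median deviation from the replicates was 0.67 on the log2 scale, against -0.0035 for all genes. Over all genes, those under 2000 exon bases were raised in it (median deviation 0.32) while those of 5000 bases or more were lowered (-0.22). Comparisons that use this library are given below with and without it.

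In untreated WT cells the 78 genes spanned a wide range of levels, from 0.715 to 53.6 mean FPKM with a median of 13.2, and 75 of them were above 1 FPKM. The highest were MRPL37 (53.6 ± 2.38 FPKM, SD, n = 3), a mitochondria-specific protein of the large subunit, and MRPL14 (49.3 ± 1.02), the counterpart of bacterial L14. They were followed by MRPL18 (46.2 ± 3.15), MRPL47 (43.7 ± 1.51) and MRPL51 (37.8 ± 1.503). At the other end stood MRPL46 (0.715 ± 0.0873), MRPL38 (0.852 ± 0.0831) and MRPL53 (0.9504 ± 0.373), whose ranges over replicates overlapped one another, then MRPS18C (2.23 ± 0.143) and MRPS24 (2.39 ± 0.312), whose ranges did too. Messages for proteins of one particle were thus of very unequal abundance per length. The genes lie on 21 chromosomes, and 29 of them start within 1000 bases of a protein-coding gene on the other strand, such as MRPL46 and MRPS11, which start 34 bases apart and are both members.

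The 3 MRPS18 genes encode related proteins that sit at different places: MRPS18A in the large subunit, MRPS18B and MRPS18C in the small one. MRPS18B was the most abundant in every group, with 27.9 ± 1.79 FPKM in untreated WT cells, above 13.2 ± 0.658 for MRPS18A and 2.23 ± 0.143 for MRPS18C. The order was the same in treated KO cells, with 37.5 ± 2.49, 15.6 ± 1.16 and 2.33 ± 0.229 FPKM. Between treated lines the log2 difference was 0.27, adjusted p = 7.4e-05 for MRPS18B, 0.09, adjusted p = 0.39 for MRPS18A and -0.36, adjusted p = 0.0048 for MRPS18C. The call of MRPS18C was lost under 9 of 16 alternatives, among them leaving out the second or the third treated WT library, or the first or the third treated KO one.

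**Figure D1:**
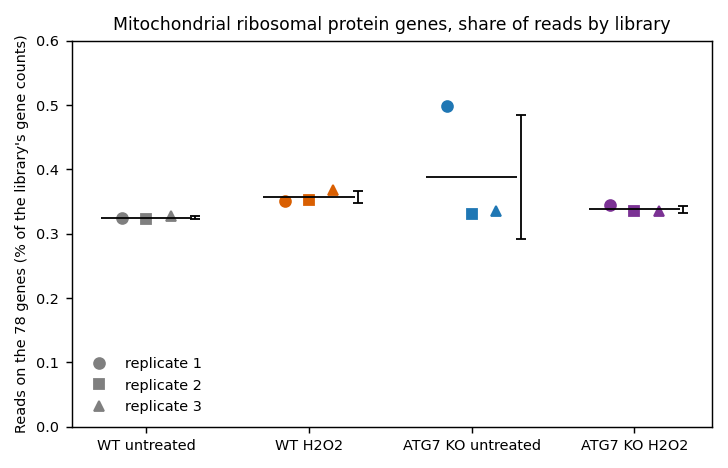
Share of each library's gene-assigned reads that fell on the 78 members (vertical axis, percent), 1 point per library for the 4 groups (horizontal axis), with a line at the group mean and a bar of 1 SD to either side. The first untreated KO library lies at 0.499%, above the other 11 libraries, which lie between 0.323% and 0.368%.

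Summed over all members, messages for the mitochondrial ribosome took 0.325% ± 0.00229 of reads in WT untreated, 0.357% ± 0.00969 in WT H2O2, 0.388% ± 0.0958 in KO untreated and 0.338% ± 0.00517 in KO H2O2 cells (SD, n = 3). These are shares of bulk RNA, in which fewer cells with a message and less of it per cell cannot be told apart. The ratio of summed FPKM of large to small subunit genes was 2.35 ± 0.0524 in untreated WT and 2.34 ± 0.0737 in untreated KO cells, and 2.61 ± 0.0346 and 2.69 ± 0.0461 after H2O2, with no overlap between untreated and treated libraries in either line. Abundant genes weigh most in such sums, and their part in the ratio was not tested. The median log2 fold change after H2O2 was 0.14 for large and 0.15 for small subunit genes in WT cells. In KO cells, with all libraries, it was -0.26 and -0.30. Those 2 values include the first untreated KO library. Without it the KO median of all members was -0.0082, in place of -0.27.

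**Figure D2:**
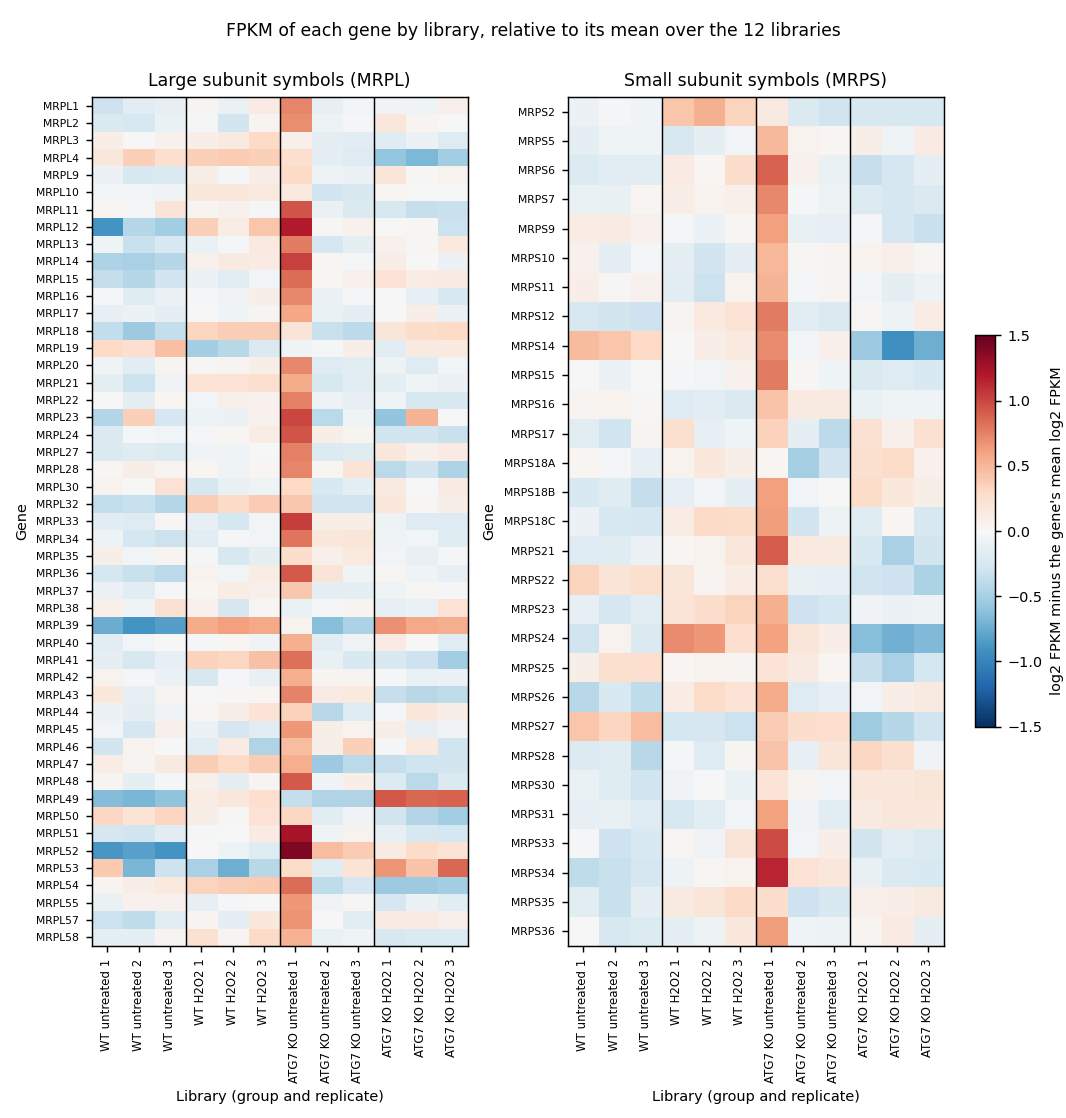
Level of every member in every library, shown by colour as log2 FPKM minus the gene's mean log2 FPKM over the 12 libraries, with MRPL genes in the left and MRPS genes in the right panel and the libraries in columns by group. The first untreated KO column is raised for most genes, and MRPL39 and MRPL49 are higher in the treated than in the untreated columns of either line.

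How the lines differ under oxidant was asked first, comparing KO with WT cells after H2O2. All 78 members passed the filter on low counts, as they did in every comparison. A gene was called at an adjusted p below 0.01 (Benjamini-Hochberg) in the quasi-likelihood test of edgeR, adjusted over the whole table. By this rule 11 members were higher and 30 lower in KO cells, that is 14.1% and 38.5% of the 78, where 27.7% and 27.9% of all 15909 tested genes were called higher and lower. The members' median log2 fold change was -0.11. Short genes as a whole were lower in KO than in WT cells after H2O2 (median -0.18 for genes under 2000 exon bases, 0.11 for those of 5000 or more), and members are short, with a median of 2539 exon bases against 4561. With a per-library correction for gene length, 17 members were higher and 25 lower with a median of 0.04, against 26% and 27.2% of all genes. Among the members themselves, Spearman's rho of length and fold change was 0.011 (78 genes of the same libraries, a description). For the response of WT cells to H2O2 it was -0.40. The part of gene length in these counts was not tested.

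MRPS24, the counterpart of bacterial S3 in the small subunit, was lowest in KO against WT cells. It lies at chr7:43866558-43869893, minus strand (GRCh38). Its level was 4.33, 4.15 and 3.16 FPKM in treated WT and 1.699, 1.61 and 1.68 in treated KO libraries. The groups do not overlap, and the log2 fold change was -1.23 ± 0.15 (SE), adjusted p = 1.3e-08. A readthrough gene named URGCP-MRPS24, on the same strand, shares 23.2% of the exon bases of MRPS24 and held at most 2 reads in any library. Reads on the shared bases may have been counted for neither gene, which was not tested. The call was kept under every alternative tried.

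MRPL53, a mitochondria-specific protein at the base of the stalk (chr2:74471958-74473322, minus strand), had the highest estimate. It read 0.746, 0.628 and 0.779 FPKM in treated WT and 1.65, 1.404 and 1.89 in treated KO libraries. These levels rest on 13 to 44 reads per library over the whole series, and the log2 fold change was 1.18 ± 0.30 (SE), adjusted p = 8.5e-04. CCDC142, on the same strand, shares 45.2% of the exon bases of MRPL53 and was itself higher in KO cells (0.75, adjusted p = 7.8e-05), so reads of these genes are not cleanly told apart. MRPS24 and MRPL53 were the 2 members that also passed a mean FPKM above 1 in a group and an absolute log2 fold change above 1, as did 7.46% of all genes.

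Among the other lower genes, MRPL4, the counterpart of bacterial L4 near the peptide exit tunnel, stood at 13.7, 14 and 13.8 FPKM in treated WT and 7.16, 6.73 and 7.49 in treated KO libraries (-0.96 ± 0.06 (SE), adjusted p = 8.8e-15). All KO libraries lay below all WT libraries for MRPL4. MRPL54, at the base of the stalk, stood at 25.7, 26.4 and 26.8 FPKM in treated WT and 13.98, 14.02 and 14.3 in treated KO libraries (-0.91 ± 0.09 (SE), adjusted p = 8.0e-11). MRPS14, the counterpart of bacterial S14, stood at 5.59, 6.01 and 6.21 FPKM in treated WT and 3.83, 2.96 and 3.38 in treated KO libraries (-0.82 ± 0.11 (SE), adjusted p = 2.4e-07). The treated groups did not overlap for these genes either. MRPL41, a mitochondria-specific large subunit protein, followed at -0.72 ± 0.06 (SE), adjusted p = 1.6e-11.

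Fewer members were higher. MRPL49, a mitochondria-specific large subunit protein, stood at 61.9, 64.1 and 67.97 FPKM in treated WT and 109, 104 and 105 in treated KO libraries (0.70 ± 0.04 (SE), adjusted p = 1.9e-16). Every KO library exceeded every WT library by a wide margin. FAU and SYVN1, which share 9.16% and 11.6% of the exon bases of MRPL49 on the opposite strand, were lower (-0.31, adjusted p = 2.7e-09) and higher (0.29, adjusted p = 5.2e-06). MRPL19, the counterpart of bacterial L19 at the face between the subunits, stood at 6.64, 7.07 and 8.15 FPKM in treated WT and 8.47, 10.4 and 10.5 in treated KO libraries (0.41 ± 0.08 (SE), adjusted p = 1.2e-04), also without overlap. MRPL52, of the central protuberance, was higher by a smaller amount (0.28 ± 0.07 (SE), adjusted p = 4.3e-04), and MRPS31, with an estimate close to that of MRPL52, was not called (0.29, adjusted p = 0.013).

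**Figure D3:**
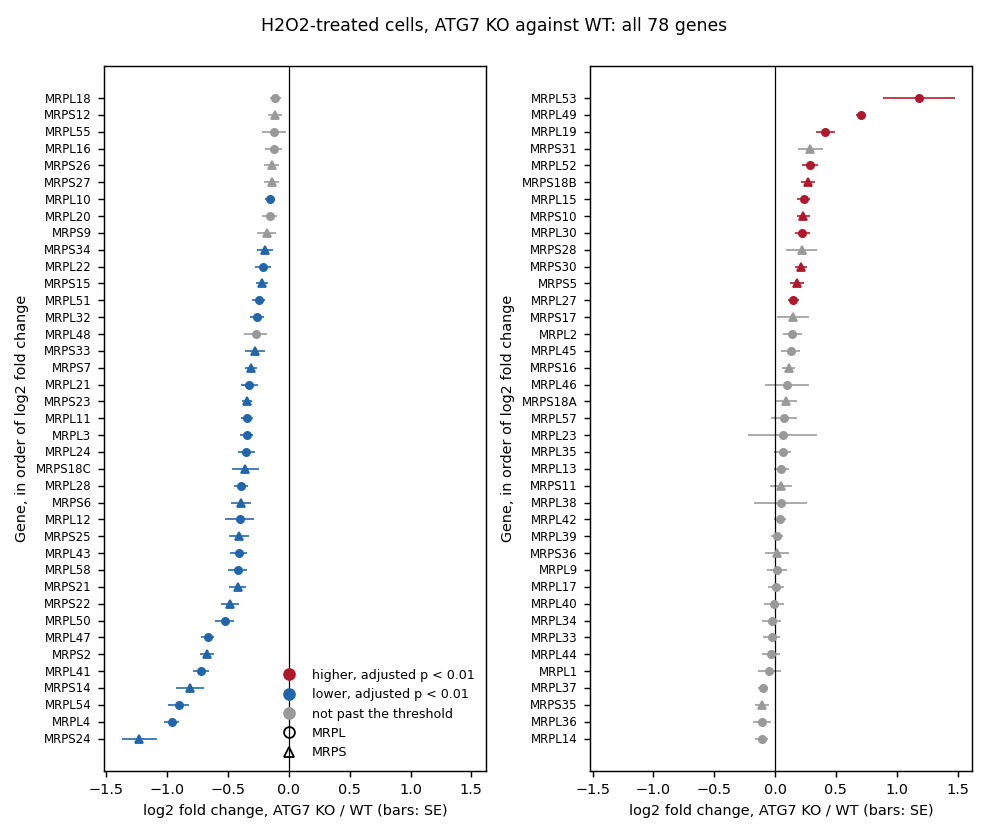
Log2 fold change of each of the 78 members between KO and WT cells after H2O2 (horizontal axis) with its standard error as a bar, in order of value over both panels, with red for higher and blue for lower at adjusted p below 0.01, circles for MRPL and triangles for MRPS. The 30 lower calls run from -1.23 for MRPS24 to -0.15 for MRPL10, and the 11 higher calls from 0.15 for MRPL27 to 1.18 for MRPL53.

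These shares, 27.7% of all genes higher and 27.9% lower (26% and 27.2% with the length correction), stand beside each count of treated KO against treated WT cells that follows. Sorted by their place in the particle, 13 of 26 small subunit proteins were lower and 3 higher in treated KO cells, and 17 of 50 large subunit proteins were lower and 8 higher. The remaining 2 members, MRPL55 and MRPS36, were placed in neither list and were not called. Proteins with a bacterial counterpart gave 11 lower and 4 higher of 29 in the large and 8 lower and 2 higher of 16 in the small subunit. Mitochondria-specific ones gave 6 lower and 4 higher of 21, and 5 lower and 1 higher of 10. All 5 proteins of the stalk, which recruits the factors of elongation, were called: MRPL10, MRPL11, MRPL12 and MRPL54 lower, MRPL53 higher. With the length correction 2 of the 5 were lower and 1 higher. The central protuberance gave 1 lower (MRPL58, which releases stalled chains) and 2 higher (MRPL27 and MRPL52) of 8. The exit tunnel list, which does not hold MRPL4, gave 2 lower (MRPL22 and MRPL24) and none higher of 7.

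Of 13 members whose mutation is known to cause combined oxidative phosphorylation deficiency, 10 were lower in treated KO cells and none higher, with a median log2 fold change of -0.35, where 38.5% of all members and 27.9% of all genes were lower. MRPS14, MRPS2 (-0.67), MRPS22 (-0.48) and MRPS25 (-0.41) were lowest in this list. With the length correction 7 were lower and 2 higher, with a median of -0.23.

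Where the members lie was read against all genes of the same chromosome. All 4 members on chromosome 3 and all 3 on chromosome 9 were lower in treated KO cells, where 36.6% and 48.9% of all tested genes of these chromosomes were lower. On chromosome 17, 5 of 8 members were lower, against 38.0% of its genes. On chromosome 1, 4 of 8 members were lower (24.5% of its genes lower, 31.5% higher), and on chromosome 7, 3 of 4 (25.1% lower). Both members on chromosome 16 (29.97% of its genes lower) and 2 of 4 on chromosome 19 (42.8% lower) were lower too. No member was higher on chromosomes 1, 7, 16 and 19. On chromosome 2, none of 8 was lower and 4 were higher, against 32.4% of its genes higher. The part of position in the members' calls was not tested.

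Promoter sequence was matched by symbol to RefSeq windows (GRCh38.p14) of 250 bases before to 50 after a start, 300 bases in all. Such windows were held for 69 members, 85 in all, and not for MRPL2, MRPL10, MRPL13, MRPL15, MRPL21, MRPL23, MRPL35, MRPS28 and MRPS36. Both strands were searched with fixed letters for motifs known from genes of mitochondrial biogenesis. The ETS core CCGGAAG, bound by GABP, was found in 38.8% of member windows and in 10.3% of all 35116 windows. The YY1 motif AAGATGGC was found in 27.1% and 2.89%. Members and all windows lay closer together for the palindromic NRF1 motif (12.9% and 8.32%), the SP1 box GGGCGG (60% and 45%), the E-box CACGTG (10.6% and 7.26%) and the CCAAT box (32.9% and 34.6%). The ETS and YY1 letters can share the bases AAG, and no other pair of these motifs was looked at for overlap. Members called in opposite directions both held the ETS letters: 13 of 28 genes with a window that were lower in treated KO cells, and 5 of 10 that were higher. The YY1 letters were in 7 of the 28 and 5 of the 10.

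Stretches of 100 bases ahead of or at the start are shown for 6 members that differed between treated KO and WT cells, 5′ to 3′ on the gene's strand, with the ETS core in capitals on either strand. MRPL54 (chr19:3762582-3762681, plus strand), MRPL3 (chr3:131502972-131503071, minus) and MRPS23 (chr17:57850045-57850144, minus) were lower and hold the core. MRPS10 (chr6:42217862-42217961, minus) was higher and holds it too. MRPS14 (chr1:175023426-175023525, minus), lower, and MRPL19 (chr2:75646683-75646782, plus), higher, lack it in the stretch shown.
MRPL54: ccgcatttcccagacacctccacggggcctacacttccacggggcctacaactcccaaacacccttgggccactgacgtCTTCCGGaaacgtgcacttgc
MRPL3: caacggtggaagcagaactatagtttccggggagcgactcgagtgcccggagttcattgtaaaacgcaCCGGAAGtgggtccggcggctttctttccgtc
MRPS23: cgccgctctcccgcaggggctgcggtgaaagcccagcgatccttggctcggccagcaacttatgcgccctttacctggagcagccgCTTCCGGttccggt
MRPS10: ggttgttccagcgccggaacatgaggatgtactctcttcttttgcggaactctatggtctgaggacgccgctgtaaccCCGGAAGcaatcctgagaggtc
MRPS14: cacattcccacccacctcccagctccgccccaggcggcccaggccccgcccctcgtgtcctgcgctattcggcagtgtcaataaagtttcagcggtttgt
MRPL19: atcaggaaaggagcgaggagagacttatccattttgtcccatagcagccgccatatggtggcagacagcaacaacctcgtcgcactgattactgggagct
The ETS letters thus occur ahead of genes called in either direction.

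The effect of H2O2 in WT cells was asked next. After 12 h, 29 members were higher and 5 lower than at 0 h, against 30.9% and 30.1% of all genes, with a median log2 fold change of 0.14. Here short genes were higher as a whole (median 0.23 under 2000 bases, -0.14 from 5000). With the length correction 21 members were higher and 11 lower, with a median of 0.03, against 32% and 27.7% of all genes. The lower count also moved with single libraries, to 3 without the first and 8 without the third WT H2O2 library. Of all genes, 27.0% and 29.3% were then lower.

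MRPL39, a large subunit protein at the rim of the exit tunnel that resembles part of a threonyl-tRNA synthetase (chr21:25585656-25607517, minus strand), rose most. It went from 26.8, 24.2 and 25.3 FPKM untreated to 66.1, 68.7 and 66.6 after H2O2 (1.39 ± 0.06 (SE), adjusted p = 4.5e-25), and was the 1 member past all thresholds, as were 12.5% of all genes. Every treated library was above every untreated one.

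The next largest rises were in MRPL12, the stalk protein that contacts elongation factors, and MRPL49. MRPL12 (1028 exon bases at chr17:81703357-81707526, plus strand) went from 5.64, 7.77 and 7.28 to 13.4, 11.3 and 14.03 FPKM (0.90 ± 0.13 (SE), adjusted p = 3.9e-08). A gene with no reads in any library, AC139530.2, shares 68.2% of those bases, and how reads on them were assigned was not tested. MRPL49 went from 36.3, 35.6 and 37.6 to 61.9, 64.1 and 67.97 FPKM (0.82 ± 0.05 (SE), adjusted p = 2.3e-20), MRPL18 of the central protuberance from 47.8, 42.5 and 48.2 to 77.5, 79.6 and 80.04 (0.77 ± 0.05 (SE), adjusted p = 2.3e-17), and MRPL52 from 6.001, 6.23 and 5.87 to 10.9, 10.4 and 9.68 (0.77 ± 0.08 (SE), adjusted p = 9.3e-12). None of these treated and untreated ranges overlap. FAU, with up to 10613 reads in a library, rose by about as much as MRPL49 in WT cells (0.79, adjusted p = 6.4e-22), and SYVN1 fell (-0.40, adjusted p = 2.3e-09). As the counts name no strand setting, the part of FAU reads in the level of MRPL49 was not tested. MRPS24 rose as well (0.69 ± 0.14 (SE), adjusted p = 3.4e-05).

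Of the 5 lower members, MRPL19 went from 11.6, 11.3 and 12.9 to 6.64, 7.07 and 8.15 FPKM (-0.71 ± 0.07 (SE), adjusted p = 2.3e-12) and MRPS27, a pentatricopeptide repeat protein of the small subunit, from 12.6, 11.8 and 12.9 to 7.82, 7.87 and 7.55 (-0.69 ± 0.06 (SE), adjusted p = 6.3e-15). Both are long for this family, at 4601 and 6511 exon bases, and both stayed lower under every alternative tried. The others were MRPS14 (-0.32, adjusted p = 0.0033), MRPL30 (-0.24, adjusted p = 0.0012) and MRPS16 (-0.23, adjusted p = 2.6e-04), all counterparts of bacterial proteins. The calls of MRPS14 and MRPL30 were lost when the first WT H2O2 library was left out, as well as with either the first or second (MRPS14) or the third (MRPL30) untreated one left out. Both were also lost under DESeq2 and in one fit of all 12 libraries, and that of MRPL30 under both limma fits. That of MRPS16 was lost in one fit of all 12 libraries. MRPL53 had a low estimate (-0.40, adjusted p = 0.32) that was not called.

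By role, against the 30.9% of all genes higher and 30.1% lower (32% and 27.7% with the length correction), the large subunit gave 19 higher and 2 lower of 50 and the small subunit 10 higher and 3 lower of 26. The stalk gave 3 higher and none lower of 5, the central protuberance 4 higher and none lower of 8, and the exit tunnel list 1 higher, MRPL39, of 7. With the length correction the large subunit gave 12 higher and 6 lower, and the small subunit 9 and 5. The disease genes gave 4 higher and 2 lower of 13.

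Before treatment the lines differed at MRPL52, the central protuberance protein at chr14:22829879-22835037, plus strand. It stood at 6.001, 6.23 and 5.87 FPKM in WT and 28.9, 15.1 and 14.3 in KO libraries, and each KO library was more than 2 times as high as any WT one. This was the 1 member called higher between untreated lines (1.68 ± 0.27 (SE), adjusted p = 0.0065), and none was called lower, against 4.42% and 3.28% of all genes. At an unadjusted p under 0.05, 14 members were higher and 1 lower, against 17.3% and 15.6% of all genes. DESeq2 also called 0 lower, against 6.07% of all genes. MRPL52 also passed all thresholds, as did 3.5% of all genes. The call was lost when any 1 untreated WT library was left out, and with the replicate block or limma on log2(FPKM + 1). Without the first KO library it was kept (1.29 ± 0.08 (SE), adjusted p = 1.3e-40).

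Of the 10 tested genes nearest to MRPL52, 5 on each side, 9 had estimates above 0 between untreated lines and 4 were called higher, with a median log2 fold change of 0.79. Among them were SLC7A7, an amino acid transporter that starts 59 bases from MRPL52 on the other strand (1.59, adjusted p = 0.0027), MMP14, a membrane-bound metalloprotease (1.57, adjusted p = 0.00019), and OXA1L, which inserts proteins into the mitochondrial inner membrane (0.76, adjusted p = 0.0016). MRPL52 thus lay in a stretch of 1.41 Mb in which most genes read higher in the KO line. Over the whole of chromosome 14, 45.1% of tested genes were higher in treated KO cells, against 27.7% of all genes.

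Without the first untreated KO library, 13 members were higher and 12 lower in untreated KO cells, against 18.2% and 17.9% of all genes, and the members' median went from 0.28 to 0.05. MRPL12 (0.65 ± 0.14 (SE), adjusted p = 3.6e-05), MRPS34 (0.52 ± 0.07 (SE), adjusted p = 3.7e-11) and MRPL14 (0.47 ± 0.06 (SE), adjusted p = 1.0e-11) were then the next highest. In all libraries their estimates were 1.13, 0.90 and 0.88, and that of MRPL51 0.77, with none called. MRPL47, the counterpart of bacterial L29, was lowest, at 44.2, 41.9 and 44.8 FPKM in WT and 59.7, 28.02 and 30.9 in KO libraries. The first KO value lies on the other side of the WT range from the other KO values. Without it the log2 fold change was -0.56 ± 0.07 (SE), adjusted p = 2.2e-14. The genes lowest in all libraries, none of them called, were MRPL19 (-0.33), MRPL4 (-0.27), MRPS22 (-0.24), MRPL50 (-0.23) and MRPS18A (-0.20), and all of them were called lower without the first KO library.

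The KO against WT differences before and after H2O2 come from separate libraries. Of all genes, 27.7% were called higher and 27.9% lower between treated lines. Between untreated lines without the first KO library, 18.2% were higher and 17.9% lower. The overlap of these calls was counted for members only, so it cannot be set against that of all genes. Of the 30 members lower in treated KO cells, 9 were also among the 12 lower in untreated KO cells without the first library, which is 30% of the first list and 75% of the second: MRPL3, MRPL4, MRPL10, MRPL11, MRPL47, MRPL50, MRPL54, MRPS14 and MRPS22. Another 4, MRPL12, MRPL51, MRPS21 and MRPS34, were higher before and lower after. Of the 11 higher ones, MRPL15, MRPL49, MRPL52, MRPS18B and MRPS30 were also among the 13 higher before (45.5% and 38.5%), and MRPL19 and MRPL30 were lower before and higher after. With all libraries, MRPL52 was the 1 gene shared.

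In KO cells treated with H2O2, fewer members were called. The biological coefficient of variation was 0.161, against 0.047 in the WT comparison. With all libraries, 2 members were higher and 4 lower than untreated, against 13.6% and 12.4% of all genes, with a median of -0.27. MRPL49 went from 44.5, 41.8 and 41.7 to 109, 104 and 105 FPKM (1.31 ± 0.09 (SE), adjusted p = 5.9e-05) and MRPL39 from 46.7, 28.97 and 32.5 to 72.4, 66.97 and 65.8 (0.92 ± 0.18 (SE), adjusted p = 0.0056). For both genes treated and untreated KO libraries did not overlap, and MRPL49 kept its call under every alternative.

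The lower genes were all of the small subunit. MRPS14 went from 9.14, 5.43 and 5.89 to 3.83, 2.96 and 3.38 FPKM (-1.01 ± 0.22 (SE), adjusted p = 0.0098), MRPS24 from 4.01, 3.01 and 2.85 to 1.699, 1.61 and 1.68 (-0.99 ± 0.17 (SE), adjusted p = 0.0036) and MRPS27 from 12.2, 11.2 and 11.2 to 6.503, 7.01 and 7.64 (-0.72 ± 0.10 (SE), adjusted p = 0.0012). None of these ranges overlap. MRPS25, a mitochondria-specific small subunit protein, was the other (-0.49, adjusted p = 0.0085). MRPL49 and MRPS14 passed all thresholds, as did 11.2% of all genes. The calls of MRPL39, MRPS14 and MRPS24 were lost when any 1 treated KO library was left out, and those of MRPL39 and MRPS14 also without the third untreated one, that of MRPL39 without the second as well. The call of MRPS27 was lost without the first or the second treated KO library, and that of MRPS25 without any 1 treated KO library or the second or the third untreated one. Both limma fits also lost the calls of MRPS14 and MRPS25. MRPS14 lost its call as well with another scaling (RLE) or at least 10 counts in every library, 8 of 17 alternatives in all. MRPS25 lost its call as well with no filter on low counts or with the replicate block, 9 of 17 in all. CACYBP, on the opposite strand, shares 13.5% of the exon bases of MRPS14 and was not called (-0.23, adjusted p = 0.39). For MRPL49 in KO cells, FAU (-0.24, adjusted p = 0.47) and SYVN1 (0.09, adjusted p = 0.59) were not called either.

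Leaving out the first untreated KO library, 17 members were higher and 23 lower after H2O2, against 29.8% and 28.6% of all genes, with a median of -0.01. MRPL49 (1.33 ± 0.04 (SE), adjusted p = 5.8e-111), MRPL39 (1.14 ± 0.06 (SE), adjusted p = 1.0e-54), MRPL18 (0.60 ± 0.05 (SE), adjusted p = 1.1e-26) and MRPS18A (0.57 ± 0.10 (SE), adjusted p = 1.8e-07) were highest. MRPS24 (-0.83 ± 0.17 (SE), adjusted p = 7.5e-06), MRPS14 (-0.75 ± 0.12 (SE), adjusted p = 8.1e-09), MRPS27 (-0.69 ± 0.06 (SE), adjusted p = 2.4e-26), MRPL43 (-0.53 ± 0.08 (SE), adjusted p = 7.4e-11) and MRPL28 (-0.52 ± 0.06 (SE), adjusted p = 1.7e-14) were lowest. By role the large subunit then gave 11 higher and 12 lower of 50, the small subunit 6 higher and 11 lower of 26, and the disease genes 2 higher and 7 lower of 13.

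**Figure D4:**
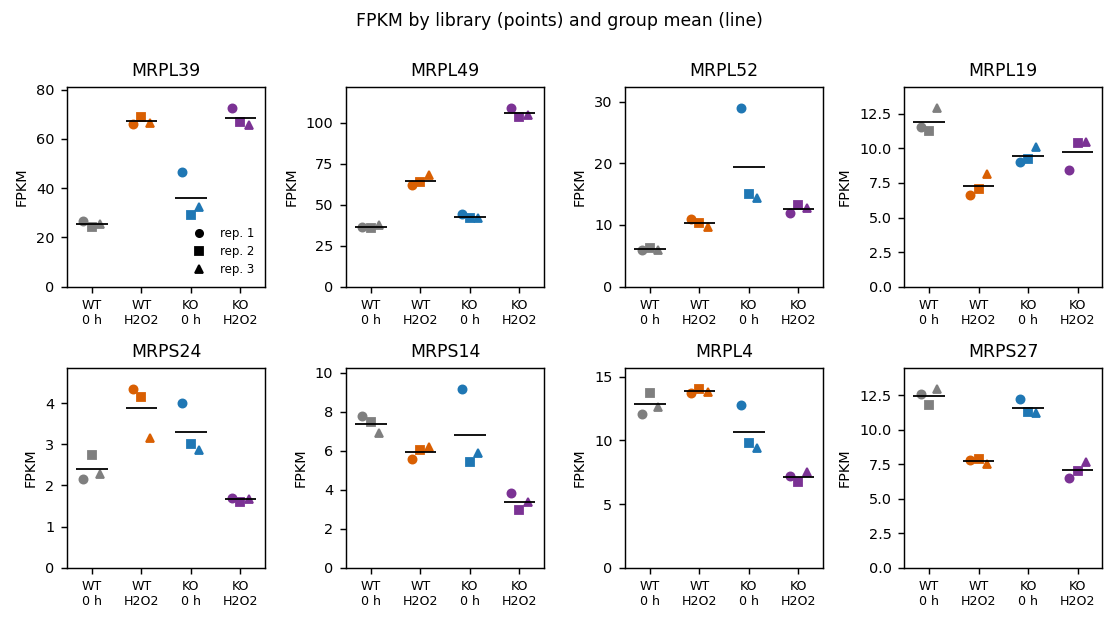
FPKM in each of the 12 libraries (points, shaped by replicate) and the group mean (line) for MRPL39, MRPL49, MRPL52, MRPL19, MRPS24, MRPS14, MRPL4 and MRPS27, with the 4 groups on the horizontal axis. MRPL39 and MRPL49 are higher after H2O2 in both lines, MRPS27 is lower in both, and MRPS24 is higher in WT but lower in KO cells.

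Responses of the lines to H2O2, which share no library, were set side by side. Of all genes, 30.9% rose and 30.1% fell in WT cells. In KO cells without the first untreated library, 29.8% rose and 28.6% fell. Shared and opposite calls were counted for members only, so they cannot be set against those of all genes. Of the 29 members that rose in WT cells, 11 were among the 17 that rose in KO cells without the first untreated library, 37.9% of the first list and 64.7% of the second. These were MRPL10, MRPL13, MRPL18, MRPL27, MRPL32, MRPL39, MRPL49, MRPS12, MRPS23, MRPS26 and MRPS35. Another 6, MRPL41, MRPL51, MRPL52, MRPS21, MRPS24 and MRPS34, rose in WT and fell in KO cells. Of the 5 that fell in WT cells, MRPS14, MRPS16 and MRPS27 also fell in KO cells and MRPL30 rose. With all libraries, MRPL39 and MRPL49 rose and MRPS14 and MRPS27 fell in both lines, and MRPS24 moved in opposite directions.

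**Figure D5:**
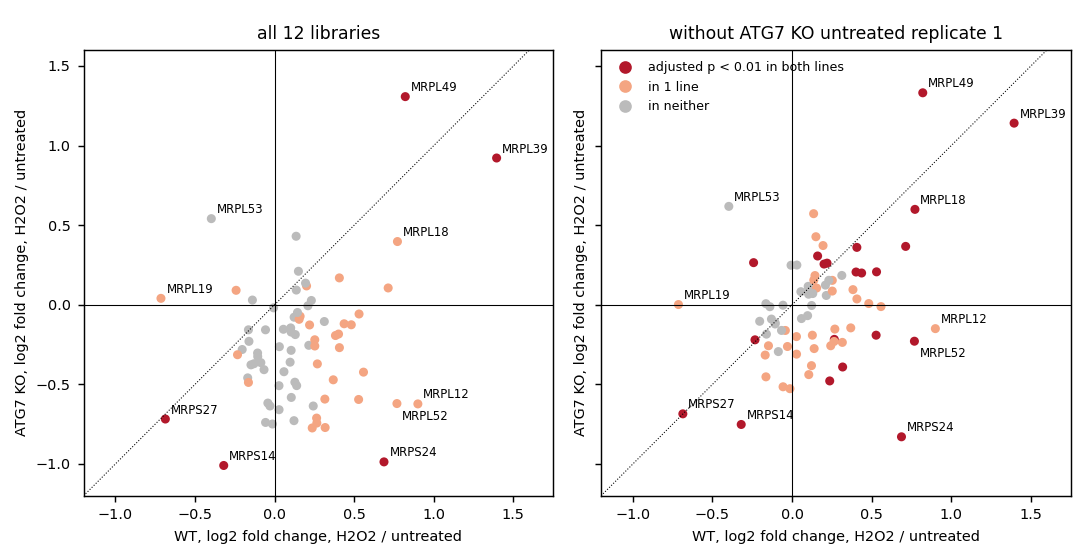
Log2 fold change after H2O2 in WT (horizontal axis) and in KO cells (vertical axis), 1 point per member, from all 12 libraries (left) and without the first untreated KO library (right), coloured by whether the gene was called in both lines, in 1 or in neither. MRPL39 and MRPL49 lie at the upper right and MRPS24 at the lower right in both panels, while most points move upward between the panels, the KO median going from -0.27 to -0.01.

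The difference between the responses was tested as an interaction over all 12 libraries. It was called lower (a response in KO cells below that in WT cells) for 5 members and higher for 2, against 7.01% and 7.02% of all genes. The 5 were MRPS24 (-1.68 ± 0.24 (SE), adjusted p = 4.8e-04), MRPL52 (-1.39 ± 0.29 (SE), adjusted p = 0.0045), MRPS21 of the small subunit (-1.01 ± 0.24 (SE), adjusted p = 0.0088), MRPL4 (-0.69 ± 0.15 (SE), adjusted p = 0.0056) and MRPS2 (-0.61 ± 0.14 (SE), adjusted p = 0.008). MRPS24, MRPL52 and MRPS21 passed all thresholds, as did 5.17% of all genes. The 2 higher were MRPL19 (0.76 ± 0.15 (SE), adjusted p = 0.003), which was called lower in WT cells and not called in KO cells, and MRPL49 (0.49 ± 0.09 (SE), adjusted p = 0.0025), which rose more in the KO line.

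MRPS2, the counterpart of bacterial S2, stood at 19.3, 20.3 and 19.6 FPKM untreated and 27.4, 29.8 and 25.9 after H2O2 in WT cells. In KO cells it stood at 22.6, 17.7 and 16.7 untreated and 17.6, 17.4 and 17.4 after H2O2. MRPS21 stood at 19.6, 19.8 and 21.2 FPKM untreated and 23, 23.4 and 25.3 after H2O2 in WT cells, and at 42.3, 24.9 and 24.6 untreated and 19.2, 15.99 and 18.6 after H2O2 in KO cells. For both genes every treated WT library was above every untreated one, whereas the treated KO libraries of MRPS21 were all below the untreated ones and those of MRPS2 lay within the untreated range.

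Without the first untreated KO library, the interaction called 4 members higher and 23 lower, against 17.8% and 16.3% of all genes. The members' median was -0.12, in place of -0.38 with all libraries. All 7 genes named above kept their direction and their call, and MRPL12 (-1.04 ± 0.18 (SE), adjusted p = 1.4e-06) was then past all thresholds with MRPS24 (-1.504 ± 0.22 (SE), adjusted p = 1.1e-08). With the length correction on top, chosen after seeing the data, 10 were higher and 14 lower with a median of 0.03. Of all genes, 14.7% were then higher and 15.6% lower. The call of MRPS24 held under all 22 alternatives, whereas that of MRPS2 was lost under 13, that of MRPS21 under 12, that of MRPL4 under 9, that of MRPL52 under 8, that of MRPL19 under 5 and that of MRPL49 under 1 of them. The count of lower members was 1 or 2 when any single WT or treated KO library was left out (4.10% to 4.85% of all genes lower). It was 23, 14 or 13 when an untreated KO library was (8.03% to 16.3%).

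The rest of the mitochondrial translation system was read from lists, whose counts stand against 27.7% of all genes higher and 27.9% lower between treated lines, and 30.9% and 30.1% in WT cells after H2O2. Among the 5 tested mitochondrial ribosome proteins with other symbols, 2 were lower and 2 higher in treated KO than in treated WT cells. The lower ones were CHCHD1 (-0.69, adjusted p = 3.5e-08) and GADD45GIP1 (-0.67, adjusted p = 3.4e-13), a protein of the large subunit also known as CRIF1. Translation factors gave 3 higher and 4 lower of 15, among them MTRF1, a release factor (-0.53, adjusted p = 0.0011), and MTIF2, an initiation factor (0.31, adjusted p = 6.7e-04). Assembly factors gave 6 higher and 2 lower of 27, among them the rRNA methyltransferase METTL15 (0.53, adjusted p = 0.001) and the GTPase GTPBP10 (0.44, adjusted p = 1.6e-06).

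Mitochondrial aminoacyl-tRNA synthetases, which charge the tRNAs these ribosomes use, gave 10 higher and 1 lower of 20 in treated KO cells, where the members gave 11 and 30 of 78. The largest were AARS2 (0.91, adjusted p = 2.6e-13), HARS2 (0.75, adjusted p = 6.0e-13), LARS2 (0.70, adjusted p = 1.5e-09) and TARS2 (0.66, adjusted p = 8.7e-09), and MARS2 was the lower one among them (-0.53, adjusted p = 1.7e-05). In WT cells H2O2 lowered 11 of the 20 and raised 1, MARS2 (1.05, adjusted p = 8.8e-12), where members gave 5 lower and 29 higher. TARS2 fell there from 8.81 ± 0.129 to 4.94 ± 0.1996 FPKM (SD, n = 3; -0.84, adjusted p = 1.8e-13).

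RNA of the mitochondrial genome itself was read as well. The small rRNA MT-RNR1, on which the MRPS proteins assemble, stood at 616 ± 12.4 FPKM in untreated and 4676 ± 237 in treated WT cells, and at 633 ± 178 and 1599 ± 109 in KO cells (SD, n = 3). It rose in both lines (2.92, adjusted p = 1.8e-44 in WT, 1.33, adjusted p = 0.0019 in KO) and was lower in treated KO than in treated WT cells (-1.56, adjusted p = 1.2e-11). The large rRNA MT-RNR2 rose in WT cells (1.22, adjusted p = 2.7e-31), and in KO cells its change was not called with all libraries (0.47, adjusted p = 0.019) but was without the first untreated one (0.55, adjusted p = 1.8e-44). The 13 mRNAs fell in WT cells, among them MT-ND6 (-2.02, adjusted p = 1.7e-16) and MT-ATP8 (-2.14, adjusted p = 3.4e-26). In KO cells 7 of the 15 mitochondrial RNAs were lower and 1 higher with all libraries. How the kit captured rRNA without long tails was not tested.

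Of 11 genes of mitochondrial transcription and RNA processing, 6 rose and 2 fell in WT cells after H2O2, and 6 were lower and 1 higher in treated KO than in treated WT cells, against the same shares of all genes. TFB2M, which opens mitochondrial promoters, rose in WT cells (1.14, adjusted p = 1.8e-17) and was lower in treated KO cells (-0.87, adjusted p = 8.8e-12), and TFAM, which packages mitochondrial DNA, rose in WT cells (0.86, adjusted p = 4.4e-20). Of 7 tested regulators of mitochondrial gene programmes, 4 were lower and 1 higher in treated KO cells. In WT cells after H2O2, 4 of the 7 rose and 1 fell. The 1 that fell was GABPA (-0.45, adjusted p = 1.3e-09), of the GABP named above for the ETS core. MYC stood at 22.03 ± 0.855 FPKM untreated and 47.6 ± 2.84 treated in WT cells and at 13.6 ± 1.19 and 16.04 ± 0.638 in KO cells (-1.58, adjusted p = 2.8e-22 between treated lines). NRF1, the factor named for nuclear respiratory genes, was lower in treated KO cells (-0.66, adjusted p = 3.1e-08), and ESRRA, an orphan receptor of the same programme, was higher (0.32, adjusted p = 3.9e-05) and rose with H2O2 in both lines (1.595, adjusted p = 3.9e-23 in WT, 1.48, adjusted p = 5.3e-05 in KO). Their part in the members' levels was not tested.

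Exon sharing limits single genes, since no strand setting is named for the counts. Of the 78 members, 41 share exon bases with another gene and 25 share at least 10%. Beyond those named above, large shares were those of MRPS18A with RSPH9 (47.0%), MRPS18C with ABRAXAS1 (40.2%), MRPL43 with SEMA4G (32.7%) and MRPL51 with NCAPD2 (31.3%), on opposite strands, and of MRPL38 with AC087289.3 (37.5%) on the same one. Reads assigned to the pseudogenes came to between 0.0288% and 0.106% of the members' reads per library.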

How the data were processed

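RNA sequencing of 12 HLE-B3 libraries was used. Per the labels and the methods of the study, reads were aligned to GRCh38 and the authors deposited raw counts per gene, with HISAT2 2.0.5 and featureCounts 1.5.0-p3 named in the submitters' processing notes. The deposited FPKM values are the counts scaled by exon length, library total and a further factor per library, 0.949 to 1.02, that is lowest in 5 of the 6 untreated libraries. Tests used the counts. The kit was NEBNext Ultra RNA, and no strand setting is given in the sources used here. All 78 members match GENCODE 29 in coordinates and exon length.

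The members, gene lists and comparisons were chosen with earlier results of these data known. Counts were filtered (filterByExpr, minimum count 10), scaled by TMM and tested with the robust quasi-likelihood test of edgeR 4.0.16 in R 4.3.3. Each pair of groups was fitted on its own 6 libraries, and the interaction on all 12. Between 15357 and 16856 genes entered, and p-values were adjusted over all of them (Benjamini-Hochberg). A gene was called at adjusted p below 0.01. All thresholds were, in addition, an absolute log2 fold change above 1 and a mean FPKM above 1 in a group. Fold changes are log2 from edgeR with its SE. The p-values set a difference between groups against the spread between their libraries, and not against a spread between clones. Named members were the 5 highest and 5 lowest estimates of each comparison, those past all thresholds, the 5 highest and lowest levels in untreated WT cells and the MRPS18 genes, with up to 4 genes of the largest change per list. Other genes were named after their values were seen. Alternatives used DESeq2 1.42.0, limma 3.58.1 on log2(FPKM + 1) and log2(FPKM + 0.1), other scalings and filters, a lowess correction for gene length (span 0.3), a replicate block, all 12 libraries in one fit, and each library left out. The scripts were tested on simulated data.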

Additional observations from a re-analysis of the deposited data

Results flagged for a closer look

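The response to H2O2 differed between the lines by the interaction test of edgeR for 7 members, given as the log2 response in KO minus that in WT cells. It was lower in the KO line for MRPS24 (-1.68), MRPL52 (-1.39), MRPS21 (-1.01), MRPL4 (-0.69) and MRPS2 (-0.61), and higher for MRPL49 (0.49) and MRPL19 (0.76). MRPS24 rose in WT and fell in KO cells, each by its own test. Groups of 3 are too small for a test of single outlying libraries, and the first untreated KO library enters all 7 values. Without it the values ran from -1.504 (MRPS24) to 0.73 (MRPL19), and all 7 calls were kept.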

How the results depend on the processing

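Of the members whose fold change is given, MRPL47 between untreated lines ran from -0.56 to 0.052 with each library dropped in turn, above 0 without the second or the third untreated KO library and called without the first, and the others kept their direction under every alternative. Estimates near 0 of members named for their level alone could turn with the length correction, such as MRPL37 (-0.10 to 0.04 between treated lines), with no call. From here to the end of the paragraph, brackets after a count hold the share of all tested genes called in that direction under the same setting. In the comparison of KO with WT cells after H2O2, the length correction gave 17 higher (26.0%) and a median of 0.042. One fit of all 12 libraries gave 3 higher (14.0%) and 9 lower (15.0%). For untreated cells, DESeq2 called 3 members higher (7.07%) and one fit of 12 libraries 7 (9.88%). The replicate block and limma on log2(FPKM + 1) called 0 higher (2.04% and 3.85%). For H2O2 in WT cells, DESeq2 called 3 lower, one fit of 12 libraries 7 higher and 2 lower, and the length correction 11 lower with a median of 0.031. For H2O2 in KO cells, DESeq2 called 8 lower (12.8%), either limma fit 2 (11.2%) and one fit of 12 libraries 13 (19.1%). The length correction called 4 higher (17.5%) and 8 lower (15.1%). For the interaction, DESeq2 called 11 lower, no filter on low counts 28, the replicate block and limma on log2(FPKM + 0.1) 3, and the length correction 4 higher and 3 lower with a median of -0.17. The length correction without the first untreated KO library was an alternative chosen after seeing the data. Between untreated lines it gave 13 higher (19.0%), 14 lower (17.2%) and a median of 0.029. For H2O2 in KO cells it gave 18 (31.1%), 22 (27.5%) and 0.016, and for the interaction 10 (14.7%), 14 (15.6%) and 0.034. The one fit of 12 libraries shares the wide spread of the untreated KO group with every comparison, and filters and scales over all groups. The part of either in its counts was not tested, nor was the cause of the other changes.

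With each library dropped in turn there were 8 to 12 higher and 24 to 29 lower members between treated lines (median -0.14 to -0.08), 0 to 13 and 0 to 12 between untreated lines (0.05 to 0.41), 22 to 29 and 3 to 8 in WT cells (0.12 to 0.15), 1 to 17 and 0 to 23 in KO cells (-0.40 to -0.0082), and 0 to 4 and 1 to 23 for the interaction (-0.53 to -0.12). Of all genes, 24.0% to 26.9% were then higher and 24.1% to 27.4% lower between treated lines. Between untreated lines the shares were 1.14% to 18.2% and 0.68% to 17.9%. In WT cells they were 28.2% to 30.1% and 27.0% to 29.3%, and in KO cells 6.54% to 29.8% and 4.52% to 28.6%. For the interaction they were 3.59% to 17.8% and 4.10% to 16.3%. Where a replicate block was fitted, it gave 11 higher and 29 lower between treated lines (27.4% and 27.3% of all genes). Same-numbered libraries did not pair: their deviations correlated between -0.069 and 0.098 over 18 pairs, and 6 of 12 libraries correlated best with their own number. No scaling moved the median of all genes by as much as 0.1 on the log2 scale. Members with few reads, such as MRPL53 with 13 to 44, are limited by depth, and smaller changes in them were not detectable at this depth.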
